A study of Mus musculus with 12 samples.

Results

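The genes described are 10 regulators of G-protein signalling, *Rgs2*, *Rgs3*, *Rgs4*, *Rgs5*, *Rgs6*, *Rgs8*, *Rgs10*, *Rgs12*, *Rgs16* and *Rgs19*, out of 20368 genes in the deposited table, of which 19424 had counts used here. They were picked by symbol, and the list was chosen by people who had measured values of the mutant and control hearts in view, so the genotype comparison of these 10 genes is a description and carries no test. The libraries are whole hearts of CD1 mouse embryos at embryonic day 11.5 (E11.5) and 12.5 (E12.5), with 3 libraries in each of 4 groups. Cre control hearts were Mesp1Cre;Hira+/fl and Mutant hearts were Mesp1Cre;Hira-/fl, so every embryo carried the Cre driver and 1 conditional *Hira* allele, and they differed in whether the other allele was intact or null. *Mesp1* Cre acts in early mesoderm, from which most cells of the heart derive. The null allele is in every cell of a mutant embryo, and cells outside the *Mesp1* lineage keep the unrecombined conditional allele. HIRA is a chaperone for H3.3, a histone variant that can enter nucleosomes at any time of the cell cycle. The comparisons ask how the members differed between the genotypes at each stage and how they changed over the day between the stages.

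When a ligand binds a G-protein-coupled receptor, the alpha subunit of the G protein exchanges GDP for GTP and separates from the beta and gamma subunits, and both parts act on effectors such as adenylyl cyclases, phospholipase C and potassium channels. RGS proteins bind the GTP-loaded alpha subunit and speed up its GTP hydrolysis, which ends the signal. In the heart they are known for limiting the response of the pacemaker and of heart muscle to acetylcholine, adrenaline and endothelin, and in vessels for limiting contraction. The family is sorted by sequence into R4, R7, R12 and RZ subfamilies. Of the 10 genes, *Rgs2*, *Rgs3*, *Rgs4*, *Rgs5*, *Rgs8* and *Rgs16* are R4 members, mostly small proteins with little beyond the RGS domain. *Rgs6* is an R7 member, which pairs with the beta subunit Gnb5, *Rgs10* and *Rgs12* are R12 members, and *Rgs19* is an RZ member.

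On GRCm38, *Rgs8* lies at chr1:153653025-153697667 on the + strand, and 5 of the 10 genes are on chromosome 1. *Rgs16* (chr1:153740349-153745468, + strand) is the next RGS gene, with its start 87.3 kb downstream of that of *Rgs8*. *Rgs5* (chr1:169655501-169695813, + strand) and *Rgs4* (chr1:169741477-169747642, − strand) form a second pair with their 3′ ends facing each other 45.7 kb apart. The stretch before the start of *Rgs8* is shown because this gene had the lowest mutant level relative to control at E12.5, that of *Rgs16* because it is the neighbour in the same orientation, and that of *Rgs9*, an R7 gene outside the list, because it passed the test at E12.5. Each runs from 250 to 21 bases before a RefSeq start (GRCm38.p6), 5′ to 3′ on the gene's strand, and capitals mark the letters GAGAGA or AAGTG on either strand. GAGAGA was searched because the study examined GAGA-rich DNA, and AAGTG because it is the core of the site of the cardiac factor NKX2-5.
Rgs8, chr1:153652787-153653016, + strand: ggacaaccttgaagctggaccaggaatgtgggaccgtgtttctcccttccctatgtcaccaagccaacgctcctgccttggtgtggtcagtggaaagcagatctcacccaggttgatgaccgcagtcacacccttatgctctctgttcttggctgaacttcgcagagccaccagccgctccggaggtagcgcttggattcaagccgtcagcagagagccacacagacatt
Rgs16, chr1:153740103-153740332, + strand: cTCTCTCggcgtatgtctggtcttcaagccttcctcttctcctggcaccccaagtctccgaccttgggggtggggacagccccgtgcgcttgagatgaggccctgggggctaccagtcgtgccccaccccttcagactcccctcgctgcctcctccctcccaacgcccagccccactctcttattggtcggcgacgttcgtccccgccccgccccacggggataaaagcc
Rgs9, chr11:109298202-109298431, − strand: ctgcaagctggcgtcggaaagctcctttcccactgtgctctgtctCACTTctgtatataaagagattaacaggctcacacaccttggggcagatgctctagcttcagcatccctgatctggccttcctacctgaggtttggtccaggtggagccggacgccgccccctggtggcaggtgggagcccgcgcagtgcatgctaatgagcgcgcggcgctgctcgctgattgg
RefSeq gives *Rgs8* 3 starts, and the window printed is that of the first, which held neither string. The window of start 2 also held neither, and that of start 3, which like start 2 lies inside the gene, held GAGAGA 2 times as overlapping matches. Of the others, the *Rgs16* window held GAGAGA once as its reverse complement TCTCTC, and the *Rgs9* window held AAGTG once as CACTT. Of 27025 promoter windows of this length, 18.8% held GAGAGA and 38.2% held AAGTG in either orientation. A match is a run of letters and not a shown binding site, and the absence of one says only that the letters are not in this window.

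Levels below are CPM, counts scaled to a common library size after TMM normalisation, and levels are compared between genes only as RPKM, which is CPM divided by gene length in kilobases. Total counts ran from 11994148 to 17483982 per library. The 8 markers of working heart muscle summed to between 19220 and 26580 CPM and none was at 0 in any group. *Hira*, the targeted gene, stood at 77.6 ± 8.64 CPM (SD, n = 3) in controls and 64.8 ± 8.96 in mutants at E11.5, and at 74.8 ± 12.7 and 74.2 ± 5.29 at E12.5. The fitted differences of -0.26 and -0.01 on the log2 scale (SE 0.14 and 0.12) did not pass edgeR's quasi-likelihood test, with adjusted p = 0.607 and 0.962, and counts over the whole gene do not show whether the conditional exon was removed. By Y-linked counts, the 3 E11.5 control embryos were male, the E11.5 mutants were 1 male and 2 females, and each E12.5 group held 1 male and 2 females. Sex and group therefore move together at E11.5 and in the control stage comparison, and values within a sex or with sex in the fit are given for some genes. In whole hearts, fewer cells of a type and less RNA per cell cannot be told apart.

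Per length of gene, *Rgs19*, which acts on inhibitory alpha subunits, was highest at 23.6 ± 1.95 RPKM (SD, n = 3) in E11.5 controls, followed by *Rgs10* at 19.7 ± 2.60, *Rgs3* at 11.8 ± 0.807 and *Rgs12* at 11.1 ± 1.07. *Rgs3* and *Rgs12* did not differ beyond their spread, and the ranges of *Rgs19* and *Rgs10* overlapped. *Rgs5* followed at 9.32 ± 4.81 RPKM, with a spread that covered *Rgs2* at 5.70 ± 1.63 and *Rgs6* at 5.16 ± 1.64. *Rgs4* at 1.80 ± 0.223 and *Rgs16* at 1.24 ± 0.386 RPKM came next, and *Rgs8* was the lowest of the 10 at 0.484 ± 0.142. At E12.5 *Rgs19* stood at 19.9 ± 0.808 RPKM in controls and *Rgs8* was again lowest at 0.981 ± 0.430, with *Rgs4* at 1.35 ± 0.664 within the spread of it. Of the 14 other RGS genes and RGS-binding partners, *Rgs21* was not analysed here and *Rgs13* had no read. *Rgs11* at 3.64 ± 0.934 and *Rgs7bp* at 1.68 ± 0.528 RPKM in E11.5 controls were the highest of them, and *Rgs9bp* stood at 0.772 ± 0.115 and *Rgs18* at 0.710 ± 0.261. *Rgs1*, *Rgs7*, *Rgs14*, *Rgs17*, *Rgs20*, *Rgs22* and *Rgsl1* were under 0.5 RPKM, the filter of the tests, in every comparison.

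**Figure D1:**
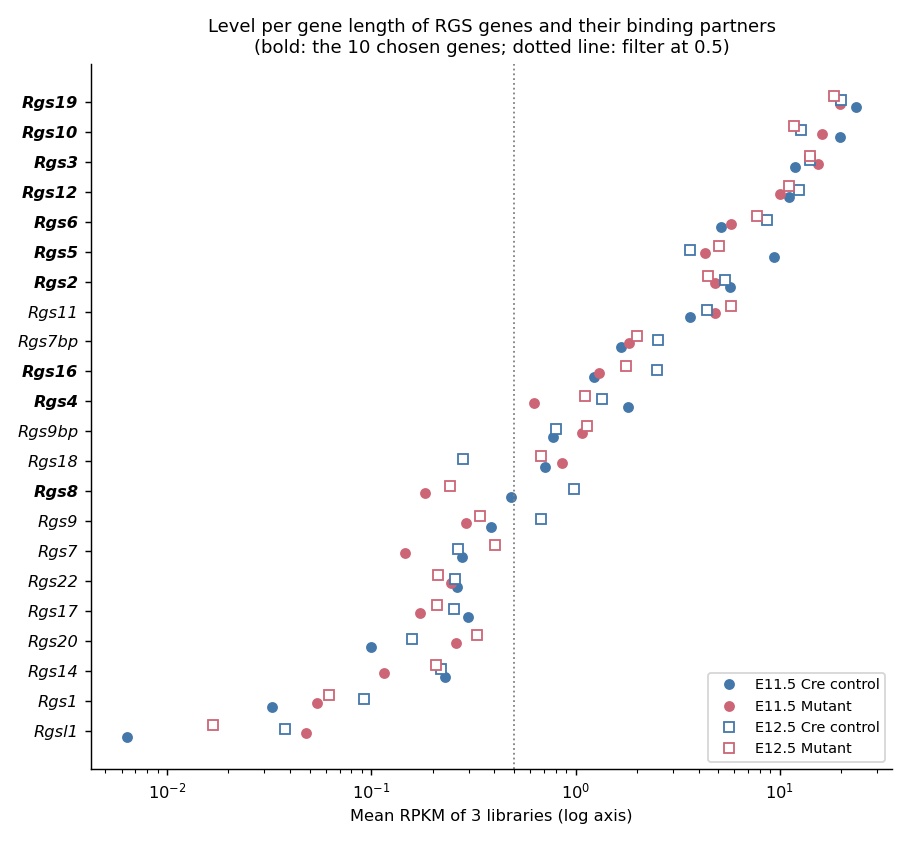
Mean RPKM of 3 libraries (log axis) for each RGS gene or binding partner with reads, with filled circles for E11.5, open squares for E12.5, blue for Cre control and red for Mutant hearts, and a dotted line at the filter of 0.5. *Rgs8* and *Rgs9* lie to the right of the line in E12.5 controls only.

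*Rgs8*, an R4 member best known from neurons, where it acts on inhibitory alpha subunits and on potassium channel opening, was lower in every mutant heart than in every control heart of its stage. At E12.5 the 3 controls held 113, 122 and 46 counts, or 7.42, 6.83 and 2.83 CPM, and the 3 mutants held 17, 21 and 28 counts, or 1.15, 1.23 and 1.85 CPM. The lowest control was above the highest mutant, and the control library at 2.83 CPM stood well under the other two. The fitted log2 fold change was -2.01 (SE 0.37), a 4.04-fold lower level. *Rgs8* was 1 of the 10 genes past an adjusted p of 0.05 and a 1.5-fold change at E12.5, and 2.95% of all genes tested were past them. Because its values helped to choose it, nothing is read from that count. It passed the filter at E12.5 through the controls alone, at 0.998 RPKM against 0.243 in mutants. The control at 2.83 CPM was the male of its group. Between males the levels were 2.83 and 1.15 CPM (1 embryo each), and between females the means were 7.12 and 1.54 CPM (2 embryos each), so the mutants were lower within each sex. With sex in the fit the log2 fold change was -1.96 (SE 0.28).

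At E11.5 *Rgs8* held 43, 31 and 52 counts in controls (2.80, 1.99 and 3.64 CPM) and 30, 15 and 4 in mutants (1.94, 0.906 and 0.345 CPM). The groups did not overlap, but the nearest libraries were a control at 1.99 and a mutant at 1.94 CPM. The gene fell under the filter at this stage, and the fit with no filter gave a log2 fold change of -1.37 (SE 0.49). The difference between the stages in the genotype effect, again without the filter, was -0.67 (SE 0.65), smaller than 2 SE.

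**Figure D2:**
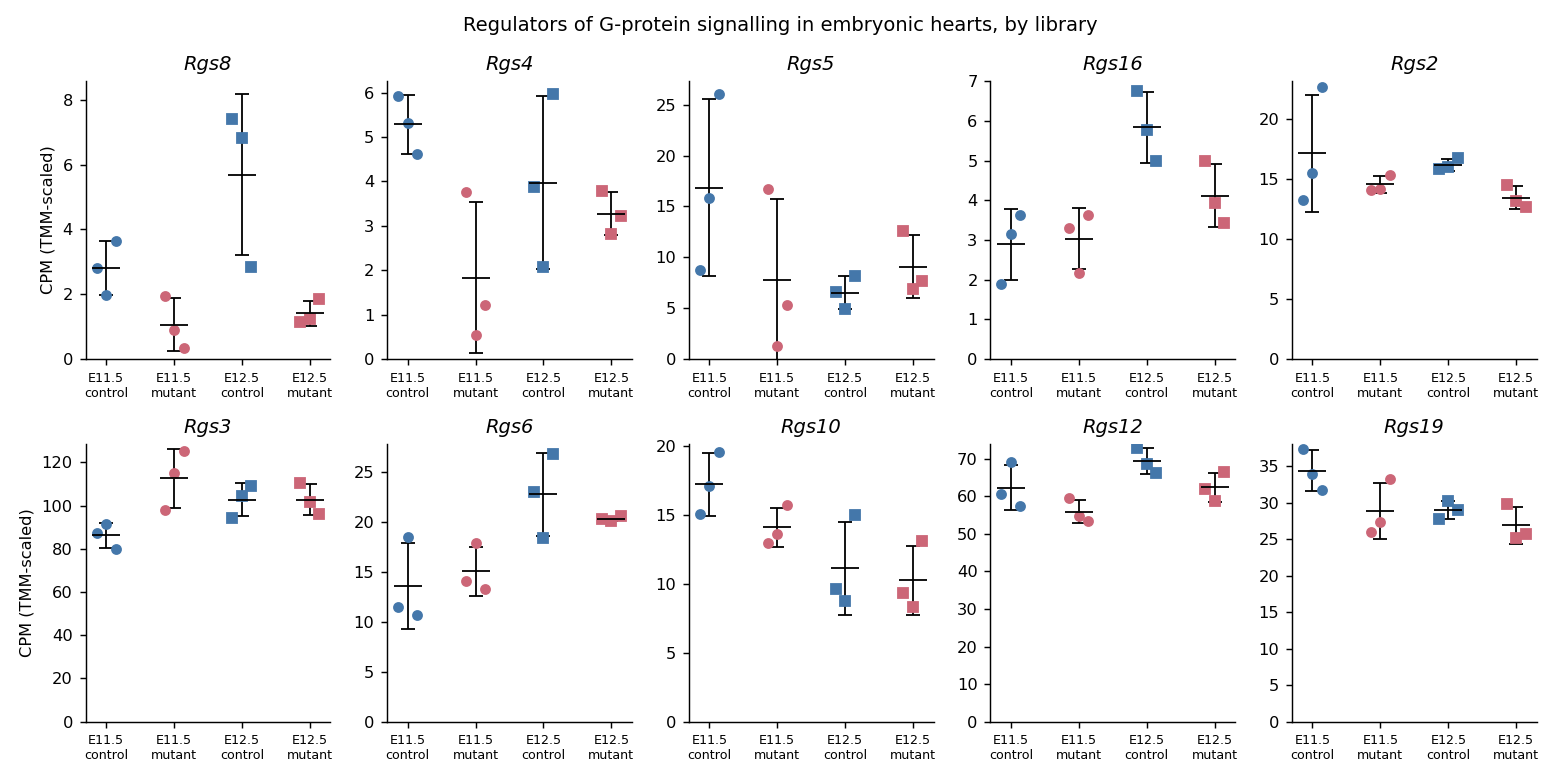
CPM of the 10 genes in each library (points), with circles for E11.5, squares for E12.5, blue for Cre control and red for Mutant hearts; black bars are the mean and SD of 3 libraries, each axis starts at 0 and a bar that would pass below 0 ends there. *Rgs8* is lower in all mutant than in all control libraries of its stage, and *Rgs5* spreads from 1.27 to 16.7 CPM among the E11.5 mutants.

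*Rgs4* and *Rgs5*, the neighbours on chromosome 1, were low in the same E11.5 mutant libraries. *Rgs4*, which limits signalling through inhibitory and Gq alpha subunits in pacemaker and muscle cells, stood at 5.92, 5.31 and 4.62 CPM in E11.5 controls and at 3.76, 0.543 and 1.21 CPM in mutants. Every mutant was below every control, and mutant replicate 1 was closer to the controls than to the other two mutants. The log2 fold change was -1.52 (SE 0.56), and -2.63 without that library. *Rgs5*, a marker of pericytes, stood at 8.72, 15.8 and 26.0 CPM in controls and at 16.7, 1.27 and 5.27 CPM in mutants, so the groups overlapped through mutant replicate 1. Its log2 fold change was -1.12 (SE 0.72), and -2.41 without that library. At E12.5 neither was lower by more than the spread. *Rgs4* stood at 3.87, 2.07 and 5.97 CPM in controls and 3.78, 2.82 and 3.23 in mutants (log2 fold change -0.28, SE 0.34), and *Rgs5* at 6.56, 4.93 and 8.13 CPM in controls and 12.6, 6.93 and 7.71 in mutants (0.47, SE 0.25). The later genotype effect less the earlier one was 1.24 (SE 0.71) for *Rgs4* and 1.59 (SE 0.87) for *Rgs5*, both within 2 SE.

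*Rgs16*, induced by many stimuli and acting on inhibitory and Gq alpha subunits, was level between the genotypes at E11.5 (2.89 ± 0.901 CPM in controls and 3.03 ± 0.762 in mutants, SD, n = 3). At E12.5 it stood at 6.76, 5.77 and 4.99 CPM in controls and at 4.99, 3.93 and 3.43 in mutants, where the highest mutant and the lowest control were at the same value to 3 digits. The log2 fold change was -0.50 (SE 0.21). The difference lay between the females, with means of 6.26 and 3.68 CPM (2 embryos each), while the males stood at 4.99 CPM in both genotypes (1 embryo each).

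*Rgs2*, which prefers Gq and limits vessel contraction, was lower in all mutants at E12.5, at 14.5, 13.2 and 12.7 CPM against 15.8, 16.01 and 16.8 in controls, a log2 fold change of -0.27 (SE 0.11). At E11.5 its groups overlapped (-0.24, SE 0.21). *Rgs3*, which acts on Gi and Gq, was higher in all mutants at E11.5, at 98.0, 114.8 and 125.1 CPM against 87.1, 91.6 and 79.9 in controls (0.38, SE 0.13), and level at E12.5 (0.00, SE 0.08). The remaining 4 genes had overlapping groups at both stages. Their log2 fold changes at E11.5 and E12.5 were 0.15 and -0.16 for *Rgs6*, which limits the parasympathetic slowing of the heart, and -0.29 and -0.12 for *Rgs10*, abundant in microglia and other macrophages. They were -0.16 and -0.15 for *Rgs12*, a large scaffold protein, and -0.26 and -0.11 for *Rgs19*. Among the members tested at E11.5, *Rgs3*, *Rgs10* and *Rgs19* moved by more than the spread within groups when sex was in the fit. Their log2 fold changes were then 0.55 (SE 0.15), -0.12 (SE 0.23) and -0.04 (SE 0.17). The E11.5 controls were all male, so the genotype value of that fit rests on the 1 male mutant set against them.

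Counted over all 10, whether tested or not, 3 genes had non-overlapping groups at E11.5 (*Rgs4* and *Rgs8* lower, *Rgs3* higher in mutants) and 2 at E12.5 (*Rgs2* and *Rgs8*, both lower). Of the members tested, 2 of 9 had non-overlapping groups at E11.5, beside 16.3% of all genes tested, and 2 of 10 at E12.5, beside 26.2%. No member was past the thresholds at E11.5, where 0.115% of all genes tested were. Males were the sex present in both E11.5 groups (3 controls and 1 mutant). Their control mean and mutant value were 2.81 and 0.345 CPM for *Rgs8* and 5.29 and 1.21 for *Rgs4*. They were 16.9 and 5.27 for *Rgs5*, and 86.2 and 125.1 for *Rgs3*. The male mutant, E11.5 mutant replicate 3, had the fewest total counts, 11994148, and 4 counts of *Rgs8*. Its chi-square per degree of freedom against the other E11.5 mutants was 43.2 and 49.6, while between those it was 12.9. The median log2 fold change of the 9 members tested was -0.24 at E11.5 and that of the 10 tested at E12.5 was -0.16, beside medians of 0.00 over all genes at both stages. Because the members were chosen with such values in view, nothing is read from these medians.

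**Figure D3:**
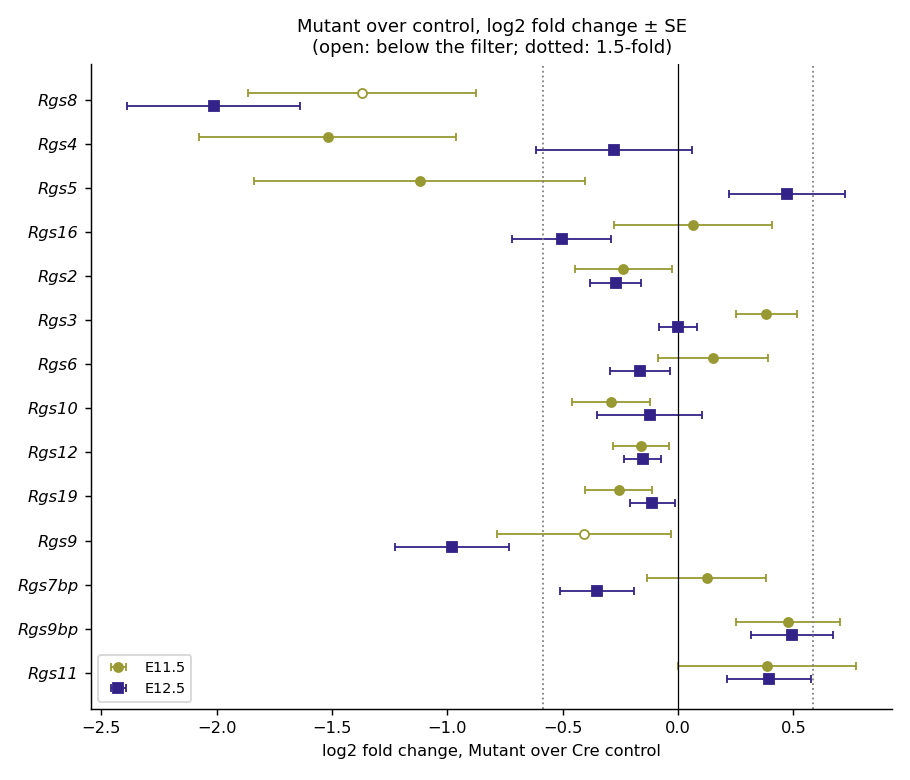
Log2 fold change of Mutant over Cre control hearts with its SE (bars) at E11.5 (circles) and E12.5 (squares) for the 10 genes and 4 further RGS genes or partners; open symbols are values below the filter, from the fit without it, and dotted lines mark a 1.5-fold change. *Rgs8* at E12.5 lies at -2.01 and *Rgs9* at -0.98, past the 1.5-fold line on the lower side.

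Levels of several cell type markers moved with the genotype. Of all genes tested, 16.3% had non-overlapping groups at E11.5 and 26.2% at E12.5, in either direction, and 2.95% were called at E12.5. Nothing is read from a count near these shares. Summed over 11 macrophage markers, E11.5 controls ran from 39.5 to 107.0 CPM and mutants from 19.6 to 23.6, and at E12.5 controls ran from 103.1 to 136.6 and mutants from 57.9 to 76.0. At E11.5, 8 of the 11 macrophage genes were lower in all mutants, and at E12.5, 6 of the 11. The 7 epicardial markers summed to 525.9 to 809.1 CPM in E11.5 controls and 345.0 to 459.4 in mutants, with 5 of 7 lower in all mutants. At E12.5 the 7 erythroid markers summed to 3790 to 6303 CPM in controls and 2088 to 2708 in mutants, with 5 of 7 lower. None of these markers was at 0 in any group, and their part in the lower *Rgs8* and *Rgs4* was not tested. The sum of 10 neuronal markers was higher in mutants, at 37.3 to 71.2 CPM against 23.7 to 34.1 at E11.5 and at 45.8 to 54.5 against 18.1 to 24.0 at E12.5. Gene by gene the list was mixed, with 1 higher and 2 lower in all mutants at E11.5, and 4 higher and 1 lower at E12.5. The summed sinoatrial node markers overlapped between the genotypes at both stages, with 3 of 7 genes lower in all mutants at E11.5 and 1 of 7 at E12.5. The 9 smooth muscle and pericyte markers summed to 2617 to 3092 CPM in E11.5 controls and 3044 to 3561 in E11.5 mutants, which overlap. At that stage 2 of these genes were higher and 1 was lower in all mutants. At E12.5 the sum was 1882 to 2341 CPM in controls and 2355 to 2819 in mutants. There 1 gene was higher and 2 were lower in all mutants, with 2 called lower. The part of this list in *Rgs5* was not tested at either stage.

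The change over 1 day was tested in the control and mutant hearts apart, in comparisons that the choice of genes did not use directly, although they rest on the same libraries. In control hearts 2 of the 10 genes tested passed, *Rgs5* downward and *Rgs16* upward, and 5.28% of all genes tested did. *Rgs5* fell from 16.9 ± 8.69 to 6.54 ± 1.60 CPM (SD, n = 3), with every E12.5 control below every E11.5 control and the nearest pair at 8.13 and 8.72 CPM. On the log2 scale the change was -1.37 with an SE of 0.34, and edgeR's quasi-likelihood test gave an adjusted p = 0.0351. *Rgs16* rose from 2.89 ± 0.901 to 5.84 ± 0.888 CPM, again without overlap (1.01, SE 0.28, adjusted p = 0.0418, edgeR). Neither was called by edgeR with sex in the fit, at -1.05 (SE 0.49, adjusted p = 0.53) and 0.79 (SE 0.39, adjusted p = 0.536). The E11.5 controls were all male and the E12.5 controls held 1 male, so that fit estimates the sex term from the E12.5 controls alone. That male stood at 8.13 CPM for *Rgs5*, under the E11.5 range of 8.72 to 26.0, and at 4.99 CPM for *Rgs16*, above the E11.5 range of 1.89 to 3.64. Each call was also lost when single libraries were left out. *Rgs5* was not called without E11.5 control replicate 3 or E12.5 control replicate 1 or 2, and *Rgs16* without any of 5 of the 6 libraries, the exception being E11.5 control replicate 2.

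*Rgs8* stood at 2.81 ± 0.826 CPM in the earlier and 5.69 ± 2.49 in the later controls (log2 fold change 1.02 with an SE of 0.37, adjusted p = 0.0895 by edgeR) and did not pass. It entered this test through the E12.5 controls alone, since the E11.5 controls were at 0.478 RPKM. The E12.5 male, at 2.83 CPM, lay inside the range of the 3 E11.5 males, 1.99 to 3.64 CPM, and with sex in the fit the log2 fold change was 0.02 (SE 0.40). *Rgs6* (0.74, SE 0.22, adjusted p = 0.0507) and *Rgs10* (-0.63, SE 0.21, adjusted p = 0.0691) lay just past the limit. With sex in the fit, *Rgs10* stood at -0.20 (SE 0.22) and *Rgs6* at 0.98 (SE 0.28), and neither was called. *Rgs8*, *Rgs6* and *Rgs10* each passed when 1 library was left out. *Rgs8* (1.34) and *Rgs10* (-0.90) did so without E12.5 control replicate 3, and *Rgs6* (1.02) without E11.5 control replicate 2. E12.5 control replicate 3 was the male of its group, so without it all E11.5 controls were male and all E12.5 controls female. Stage and sex then cannot be told apart. Smaller values were found for *Rgs3* (0.25, SE 0.10, adjusted p = 0.108), *Rgs19* (-0.25, SE 0.10, adjusted p = 0.132), *Rgs4* (-0.42, SE 0.34), *Rgs12* (0.15, SE 0.10) and *Rgs2* (-0.08, SE 0.18). Groups did not overlap for 5 of the 10 (*Rgs3* and *Rgs16* higher, *Rgs5*, *Rgs10* and *Rgs19* lower at E12.5) and for 37.4% of all genes tested.

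In mutant hearts none of the 9 members tested passed edgeR's test, and 0.556% of all genes did. DESeq2 and limma also called 0 members. At an unadjusted p under 0.05 by edgeR there were 2 members, beside 1134 of all 12238 genes tested. The 2 were *Rgs6*, higher in every E12.5 mutant (20.2, 20.1 and 20.6 CPM) than in every E11.5 mutant (14.1, 17.9 and 13.3 CPM) with an adjusted p = 0.414 by edgeR for a log2 fold change of 0.42 ± 0.15 (SE), and *Rgs10* at -0.47 (SE 0.20, adjusted p = 0.524). *Rgs6* was the single member without overlap, against 17.4% of all genes tested. *Rgs5* stood at 0.22 (SE 0.69) and *Rgs16* at 0.44 (SE 0.28). For *Rgs5* and *Rgs16* the differences between the genotypes in the stage effect are the same quantities as the stage differences in the genotype effect, 1.59 (SE 0.87) and -0.57 (SE 0.40), so the stage effects were not shown to differ between the genotypes.

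**Figure D4:**
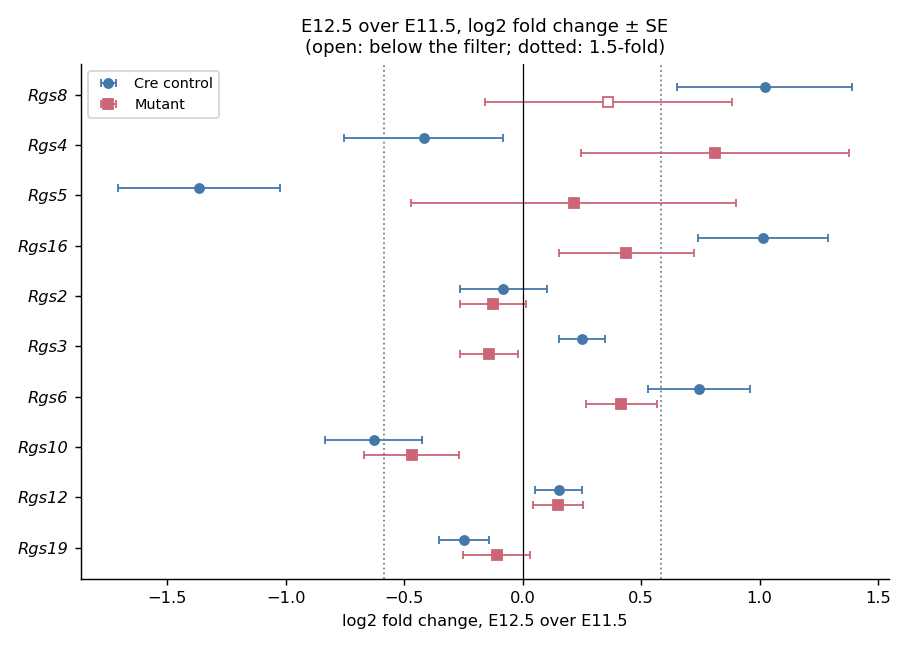
Log2 fold change of E12.5 over E11.5 with its SE (bars) in Cre control (circles) and Mutant (squares) hearts for the 10 genes; the open square is *Rgs8* in mutants, below the filter, and dotted lines mark a 1.5-fold change. *Rgs5* lies at -1.37 in controls and 0.22 in mutants.

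Among the cell type markers, the 9 smooth muscle and pericyte genes, the list nearest to *Rgs5*, summed to 2617 to 3092 CPM in E11.5 controls and 1882 to 2341 in E12.5 controls, with 1 gene called higher and 1 called lower. The 5 platelet genes summed to 72.8 to 118.2 and 37.6 to 69.2 CPM, with 2 called lower. The 7 epicardial genes summed to 525.9 to 809.1 and 364.7 to 536.3 CPM, which overlap, with 4 called lower and 1 called higher. The sum of 7 endothelial genes was higher at E12.5, as *Rgs16* was, at 1175 to 1216 CPM against 894.5 to 1109. Of the 7, 3 were higher in all E12.5 controls and 1 was called. Of all genes tested in controls, 37.4% had non-overlapping groups, in either direction, and 5.28% were called. Marker lists were named by rule where their sum moved in the direction of a member. The direction shared with *Rgs16* was therefore fixed by that choice. In mutant hearts the 9 smooth muscle and pericyte genes summed to 3044 to 3561 CPM at E11.5 and 2355 to 2819 at E12.5. Between those groups 2 of the genes were higher and 2 lower without overlap, and 0 were called. Of all genes tested in mutants, 17.4% had non-overlapping groups and 0.556% were called. None of these markers was at 0, and their part in the 2 changes in controls was not tested.

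Of the family genes outside the list, 4 of 14 were tested at each stage. At E12.5, 1 of the 4 was called, beside 2.95% of all genes tested. *Rgs9*, an R7 gene best known from photoreceptors and striatum, was called at E12.5, at 7.15, 4.31 and 5.79 CPM in controls and 2.36, 2.94 and 3.43 in mutants (log2 fold change -0.98 with an SE of 0.25, adjusted p = 0.0466 by edgeR). It too passed the filter through the controls, at 0.685 RPKM against 0.342. The call was lost with sex in the fit (adjusted p = 0.0512) without any single E12.5 mutant, and without E12.5 control replicate 1 or 3, when the gene fell under the filter, while within females the means were 5.73 and 3.18 CPM and the males stood at 5.79 and 2.36. At E11.5 it was under the filter (-0.41, SE 0.38). *Rgs9bp*, which anchors Rgs9 to the membrane, was higher in all mutants at both stages, by 0.48 ± 0.22 and 0.49 ± 0.18 on the log2 scale (± SE), and did not pass (adjusted p = 0.527 and 0.138 by edgeR). *Rgs7bp* stood at 0.12 and -0.35 and *Rgs11* at 0.39 and 0.39 at the 2 stages. No gene of this list was called at E11.5 by edgeR, DESeq2 or limma, and none was at an unadjusted p under 0.05. No gene of it was called in either stage comparison. At an unadjusted p under 0.05 by edgeR there were 2 in controls and 0 in mutants. Over all genes tested, those counts were 4017 of 12252 and 1134 of 12238.

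Of 10 other genes with a start within 300 kb of that of *Rgs8*, 5 were tested at both stages and 0 were called at either. Of all genes tested, 0.115% were called at E11.5 and 2.95% at E12.5. At these shares a count of 0 among 5 genes does not set the region apart. The 5 include *Rgs16*, a member, whose genotype values are a description. *Npl*, at -103.3 kb from the start of *Rgs8*, had log2 fold changes of -0.15 (SE 0.26) and -0.33 (SE 0.15, adjusted p = 0.234), and *Dhx9*, an RNA helicase, of 0.07 (SE 0.29) and -0.19 (SE 0.08, adjusted p = 0.203). *Glul*, glutamine synthetase, stood at 0.00 (SE 0.12) and -0.04 (SE 0.07). *Shcbp1l*, *Rgsl1*, *Gm5531*, *Teddm1* and *5830403L16Rik* had means of at most 0.29 CPM.

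**Figure D5:**
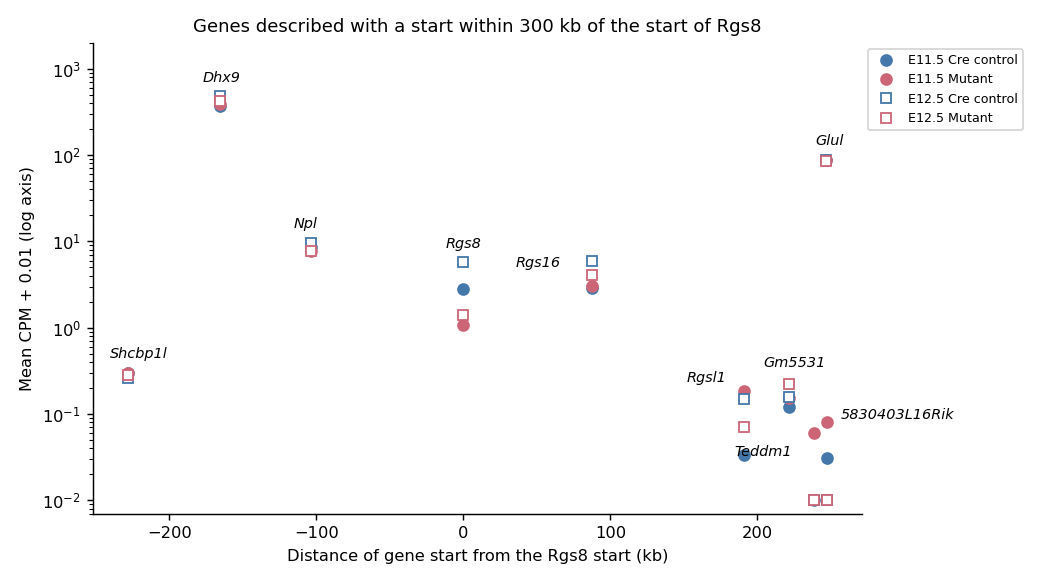
Mean CPM plus 0.01 (log axis) of the named genes with a start within 300 kb of that of *Rgs8*, against the distance of their start in kb, with filled circles for E11.5, open squares for E12.5, blue for Cre control and red for Mutant hearts. The points of the genotypes are apart for *Rgs8* and close together for *Npl*, *Dhx9* and *Glul*.

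Across the 12 libraries, the genes whose log2(CPM + 0.5) followed that of *Rgs8* most closely among 11940 genes were *Gnai1* (Pearson r = 0.960), *Zfp866* (0.947), *Manba* (0.931), *Igf1r* (0.929) and *Dnajc1* (0.924). *Gnai1*, which encodes an inhibitory alpha subunit, averaged 42.3 CPM in controls and 37.1 in mutants at E11.5, and 48.9 and 37.8 at E12.5, so it has the order of *Rgs8* at a much smaller range. Among the lowest correlations were those of *Vps25* (-0.943) and *Cystm1* (-0.939). Of the other members, *Rgs12* was nearest (0.737) and *Rgs3* farthest (-0.576). These values describe 12 libraries that differ in genotype, stage and depth, so the correlations include the differences between groups.

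Of 109 genes of the pathway on 5 lists, 80 were tested at E11.5 and 79 at E12.5. No gene was called at E11.5 by edgeR, with 11 at an unadjusted p under 0.05 and 1 called by DESeq2. Of all 12197 genes tested at E11.5 by edgeR, 1242 were at an unadjusted p under 0.05 and 0.115% were called. At E12.5, 4 were called, 2 higher and 2 lower in mutants, beside the 2.95% of all genes. None of the 11 alpha subunits tested was called at E12.5, nor any of 17 effectors or of 12 kinases, arrestins and modulators. Of 15 beta and gamma subunits, *Gngt2* was higher, at 21.7, 28.1 and 27.0 CPM in mutants and 13.8, 14.1 and 18.0 in controls (log2 fold change 0.74 with an SE of 0.14, adjusted p = 0.0143 by edgeR). Of 24 receptors, 3 were called, of which *Aplnr* and *Adora1* are described. *Aplnr*, the apelin receptor, was lower at 6.07, 3.82 and 3.296 CPM against 10.6, 16.8 and 10.8 in controls (-1.54, SE 0.25, adjusted p = 0.00944). It stood at nearly the same value at E11.5 (-1.54, SE 0.40, adjusted p = 0.196), again with every mutant below every control. *Adora1*, the adenosine receptor that slows the heart, was higher at 18.7, 13.6 and 19.3 CPM against 10.8, 7.78 and 11.3 (0.78, SE 0.18, adjusted p = 0.0331). *Adora1* was not called without E12.5 control replicate 1 or 2 or E12.5 mutant replicate 1 or 3, and *Gngt2* not without E12.5 control replicate 1 or 2. *Aplnr* was called in all of these.

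Between the stages in control hearts, 6 of 79 pathway genes rose and 1 fell, beside the 5.28% of all genes called. The E11.5 controls were all male and the E12.5 controls held 1 male. Pathway genes were not examined here with sex in the fit or with single libraries left out, so sex and stage were not separated. *Chrm2*, the muscarinic receptor of heart muscle, rose from 2.44 to 6.33 CPM (log2 fold change 1.36 with an SE of 0.35, adjusted p = 0.038 by edgeR) and *Aplnr* from 5.24 to 12.7 (1.28, SE 0.28, adjusted p = 0.0269). Of the effectors *Plcb4* (0.86, SE 0.18, adjusted p = 0.0268) and *Arhgef12*, an exchange factor for small GTPases (0.62, SE 0.13, adjusted p = 0.0243), rose, as did *Adrbk2*, a kinase that desensitizes receptors (0.85, SE 0.14, adjusted p = 0.0128). *Gngt2* fell (-0.74, SE 0.19, adjusted p = 0.0375). In mutant hearts 1 of 81 was called, beside 0.556% of all genes, *Ptger4*, a prostaglandin E2 receptor, which rose from 1.496 to 6.24 CPM (2.06, SE 0.26, adjusted p = 0.015). No difference between the genotypes in the stage effect passed among the 12269 genes tested over all 12 libraries (edgeR; 551 at an unadjusted p under 0.05), 84 pathway and other RGS genes included, of which 7 were at an unadjusted p under 0.05.

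Some reads cannot be assigned with certainty. *Rgs8* shares 70 exonic bases with a gene on the opposite strand, *Rgs16* 236, *Rgs12* 467 and *Rgs6* 77, out of lengths of 5804, 2335, 5599 and 2626 bases, and whether the counting used the strand is not given in the sources used here. The other 6 members share none.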

How the data were processed

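RNA from embryonic hearts was sequenced in 12 libraries, and the authors aligned and normalised the reads with Bowtie2 and DESeq on mm10 (submitters' processing notes). Each deposited value of the table named RPKM is a score, since it is not RPKM but a whole count multiplied by a gene length and a library factor. The authors' comparison tables give the average count of each group per the file headers, handled here as an expected count because a mean need not be whole, and a log2 fold change and p-values that were not used. Counts of 17827 genes were recovered from both tables, all within 4.89e-09 of a whole number, and 1597 further genes had no count. On simulated tables recovery was tested first.

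Counts were tested with edgeR 4.0.16 (quasi-likelihood, TMM scaling, R 4.3.3) over every gene whose RPKM averaged 0.5 or more in the 6 libraries compared, with Benjamini-Hochberg adjustment. Called genes had an adjusted p up to 0.05 together with a change of 1.5-fold or more. The fits were tested on simulated data. An exact permutation test of 3 against 3 cannot go below 0.1. Alternatives were DESeq2 1.42.0, limma 3.58.1 on log2(RPKM + 0.5), other filters and scalings, all 12 libraries in 1 fit, sex or the replicate number as a term, and single libraries left out. Libraries of a group differed by more than sampling noise (chi-square per degree of freedom 6.71 to 49.6). Nothing states that they come from separate litters. Sex was called male at 100 or more counts over 4 Y-linked genes.

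The members and gene lists were chosen with earlier results of these data known. The named genes are the members, other RGS genes past the filter, pathway genes called (up to 4 a list between stages), genes within 300 kb of *Rgs8*, and the 5 highest and 3 lowest correlations with it. *Lpar4*, *Gper1*, *Rgs21*, *Alas2* and *Gp1bb* were not analysed here, and some genes that the rule names are not reported here. Chosen after the values were seen were the promoter windows and the 2 strings searched in them.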

Additional observations from a re-analysis of the deposited data

Results flagged for a closer look

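*Ptger4* moved in opposite directions at the 2 stages. At E11.5 it stood at 1.17, 1.51 and 1.81 CPM in mutants, all below the controls at 3.45, 2.63 and 2.17, and at E12.5 at 7.08, 6.05 and 5.60 CPM in mutants, all above the controls at 4.92, 3.64 and 2.71. Neither difference was called alone (log2 fold changes -0.89 and 0.73, adjusted p = 0.388 and 0.103, edgeR), and their difference of 1.62 (SE 0.39) had an unadjusted p of 0.00118 and an adjusted p of 0.387 over all genes. No member or other RGS gene moved in opposite directions in this way, and no group had the 4 libraries needed to test for a single library standing apart.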

How the results depend on the processing

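At E12.5 the number of members past the thresholds, 1, became 0 at a mean RPKM of at least 5, in limma and with all 12 libraries in 1 fit, and was 0 to 1 with single libraries left out. It was 0 without E12.5 control replicate 1, where *Rgs8* fell under the filter, and without E12.5 mutant replicate 1. *Rgs8* stayed lower in every alternative that gave a value, from -2.34 to -1.86 with libraries left out and at -0.96 in limma, whose pseudocount shrinks low genes. The 1 call among other RGS genes became 0 at a mean RPKM of at least 5, in limma, with all 12 libraries and with sex, and was 0 to 1 with single libraries left out, of which only the omission of E12.5 control replicate 2 kept it. Pathway calls at E12.5, 4, became 8 without the fold threshold, 1 at a mean RPKM of at least 5, 1 with all 12 libraries, and 1 to 3 with single libraries left out (1 without E12.5 control replicate 1 or 2, 2 without E12.5 mutant replicate 3); at E11.5 they went from 0 to 1 in DESeq2. Members called between control stages, 2, became 4 with no filter, 4 in DESeq2, 1 in limma, 0 with all 12 libraries, 0 with sex, and 0 to 3 with single libraries left out (0 without E11.5 control replicate 3 or E12.5 control replicate 1 or 2, 1 without E11.5 control replicate 1). The count of 0 for mutant stages held in all 15 alternatives. Where no construction above explains a change, the cause was not tested.

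Values that turned sign were not called. In the control stage comparison these were *Rgs4* with sex in the fit (0.17) and *Rgs2* without E11.5 control replicate 3 (-0.24 to 0.17 over the libraries left out). In the mutant stage comparison they were *Rgs5* without E11.5 mutant replicate 2 (-0.30) or E12.5 mutant replicate 1 (-0.09; range -0.30 to 1.51) and *Rgs19* without E11.5 mutant replicate 3 (-0.19 to 0.013). The genotype values, which are descriptions, also crossed 0 in 6 cases. At E11.5, *Rgs2* reached 0.011 without control replicate 3, *Rgs6* -0.02 with sex in the fit, and *Rgs16* -0.17 without control replicate 1, being also below 0 without mutant replicate 1 or 3. At E12.5, *Rgs4* reached 0.15 and *Rgs10* 0.15 without control replicate 3, *Rgs10* was 0.011 without mutant replicate 2, and *Rgs3*, near 0 throughout, crossed it in 5 alternatives.

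With the replicate number as a block, 4 members were called between control stages, *Rgs6* (adjusted p = 0.0414) and *Rgs10* (0.0237) joining. The numbers carry no stated pairing. Correlations of the deviations of same-numbered libraries ran from -0.121 to 0.425. They were all above 0 only for genotype at E12.5, where they were weak (0.0227 to 0.0585). *Rgs8* rests on 4 to 122 counts per library.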
